A study of Caenorhabditis elegans with 4 samples.

Results

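RNA from Caenorhabditis elegans larvae depleted of TOP-1 and DPY-27 was compared with RNA from the control strain CA1200, and the outcome is described here across genes and chromosomes. The comparison is 1 result table deposited by the authors, and every gene line in it was used, 17187 genes of the 17491 found in either of the series' 2 tables. The depleted larvae were strain AM12, whose genotype joins top-1::degron::GFP with dpy-27::degron::GFP (2 libraries). Strain AM11, which carries top-2::degron::GFP beside dpy-27::degron::GFP (2 libraries), had its own table over CA1200 and is used only to show where AM12 differs. Larvae at L2/L3, grown from starved L1 for 24 h at 22 °C, had spent 2 h on plates with 1 mM auxin (indole-3-acetic acid) in all groups, the control included. All groups were therefore exposed to auxin, and AM12 and AM11 share the tag on DPY-27. The libraries were stranded and made from poly(A) RNA of whole larvae. The control libraries are not analysed here as samples, so each value is the authors' estimate and no value per library can be given.

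Auxin makes a degron-tagged protein bind the plant F-box protein TIR1, and the protein is then degraded. CA1200 is known as a strain that makes TIR1 under the promoter of eft-3, mainly in somatic cells. Depletion in germ cells cannot be judged from these data. TOP-1 is the worm's topoisomerase I, which relaxes DNA supercoils by cutting and resealing a single strand, in particular the supercoils made ahead of and behind a transcribing RNA polymerase. DPY-27 is the SMC subunit found only in condensin DC, a complex that lowers transcription from the X chromosomes of hermaphrodites by binding them, which is called dosage compensation. Condensin DC is recruited to the X by SDC-2 and its partners and spreads along the chromosome. The title of the study concerns the part of topoisomerases I and II in that movement. A strain depleted of TOP-1 alone or DPY-27 alone is not analysed here, so the shares of the 2 proteins in a change cannot be told apart.

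Changes are given as the log2 fold change of AM12 over CA1200 with its standard error (SE), and a gene is called higher or lower when the authors' DESeq2 adjusted p is under 0.05. An adjusted p was given for 14854 genes. Of these, 4442 were called, 29.9%, with 2538 higher (17.1%) and 1904 lower (12.8%). A further floor, a mean normalized count of at least 10, left 13283 genes for medians. Their median SE was 0.397 (quartiles 0.345 to 0.542), and their median log2 fold change was -0.04. Library depth is unknown from the table, in which the mean normalized counts sum to 15729010. The transcripts of the tagged genes do not check the labels, since the degron acts on protein. In the authors' deposited table top-1 (M01E5.5) stood at a log2 fold change of -0.17 with an SE of 0.31 (adjusted p 0.745). The gene dpy-27 (R13G10.1) stood at -0.55 ± 0.37 (adjusted p 0.282) in the authors' deposited table, and neither was called.

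The X chromosome stood apart from all 5 autosomes after depletion of TOP-1 and DPY-27. The 2112 X genes had a median log2 fold change of 0.68 (quartiles 0.10 to 1.48), against -0.14 (quartiles -0.71 to 0.50) for 11171 autosomal genes. The difference, called the X shift below, was 0.82 on the log2 scale, or 1.77-fold. A log2 fold change above 0 was found for 78.6% of X genes and 42.2% of autosomal genes. Calls were split in the same way. On the X 802 of 2325 tested genes rose (34.5%) and 83 fell (3.57%), while on the autosomes 1736 of 12529 rose (13.9%) and 1821 fell (14.5%). The autosomal medians were -0.21 on chromosome I, -0.13 on II, -0.22 on III and -0.18 on IV. Chromosome V lay highest among autosomes, at 0.00, and 620 of its 3225 tested genes rose (19.2%) while 441 fell. With no floor on the mean, the median of V was 0.23, and with a floor of 100 it was -0.14, and V lay highest among the autosomes under each of these 3 floors. Chromosome I had the opposite split, with 220 genes higher and 363 lower of 2266 tested. No test was run between chromosomes, because genes are not replicates.

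**Figure D1:**
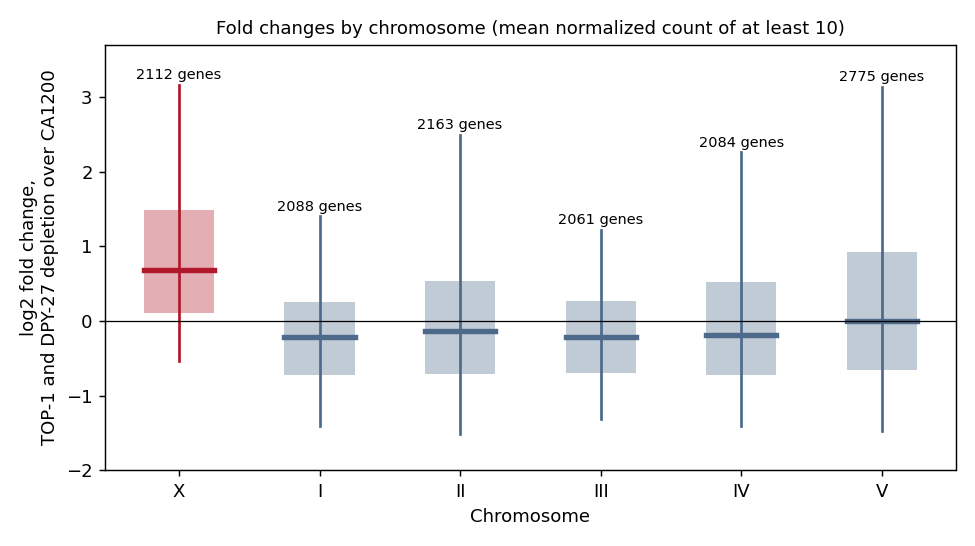
Log2 fold changes of AM12 over CA1200 by chromosome, for genes whose mean normalized count is 10 or more. Thick lines are medians, boxes quartiles and thin lines the 10th to 90th percentile over genes. The X median of 0.68 lies above the medians of the autosomes, which run between -0.22 and 0.00.

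The X stood higher along its whole length. In 9 windows of 2 Mb along it the median log2 fold change lay between 0.54 and 0.78. In 43 autosomal windows the medians lay between -0.64 and 0.57, and 1 of them, on chromosome V, was above the lowest X window. The windows of chromosome V spread from -0.17 to 0.57, those of chromosome I from -0.64 to -0.04. The X shift was also present at every level of expression. Among genes with a mean normalized count of 10 to 30 the X median was 1.59 and the autosomal median 0.84, a gap of 0.75. Among genes with a mean over 10000 the X median was 0.68 and the autosomal median -0.24, a gap of 0.93. The gaps of the 5 ranges in between ran from 0.77 to 0.89. Weakly expressed genes thus stood higher on X and autosomes alike, while the gap between them stayed within 0.75 to 0.93. Of 29 X genes with an SE under 0.3, 18 rose (62.1%), as did 349 of 1055 (33.1%) with an SE of 0.3 to 0.4, 222 of 609 (36.5%) with one of 0.4 to 0.6 and 188 of 419 (44.9%) with one over 0.6. The medians of these classes were 0.79, 0.57, 0.76 and 1.68, so that the share did not follow precision in order. Without any member of the gene lists described below, the X shift was 0.83.

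**Figure D2:**
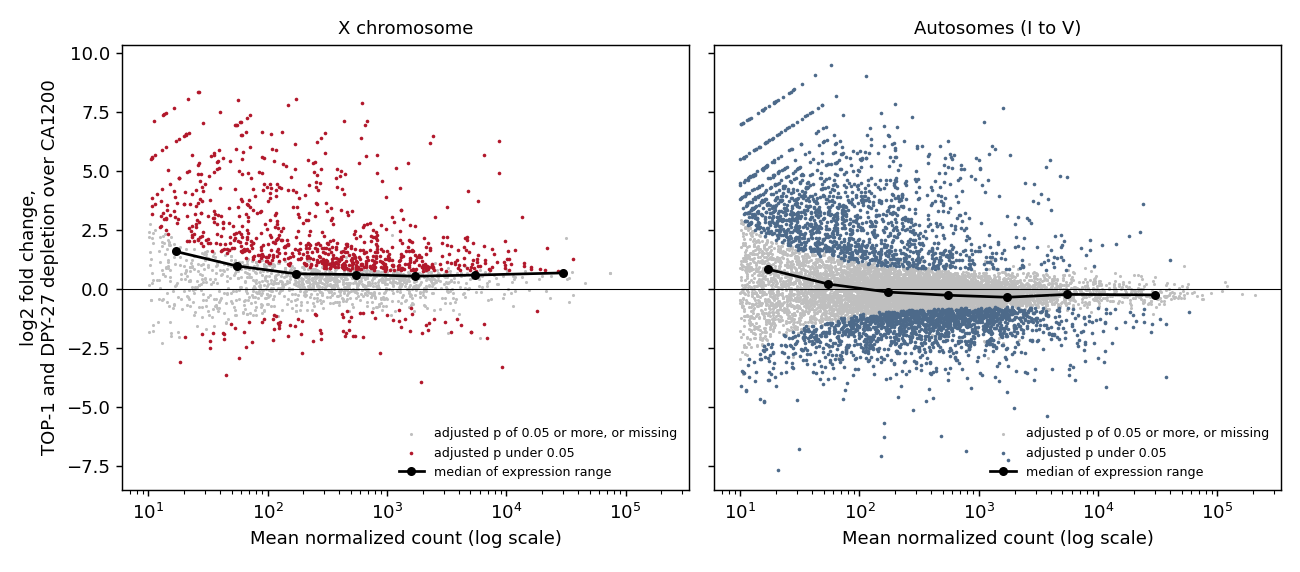
Each point is a gene, with its mean normalized count on a log axis and its log2 fold change of AM12 over CA1200, for the X (left) and the autosomes (right). Coloured points have an adjusted p under 0.05, and the black line joins the medians of 7 ranges of mean count. The X line runs between 0.55 and 1.59, above the autosomal line in every range.

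The X shift in AM12 can be set beside that in AM11, in which TOP-2 was depleted with DPY-27. It was 0.82 in AM12 and 0.67 in AM11 (1.77-fold and 1.59-fold). Both tables name their control CA1200 after 2 h on auxin, and whether the libraries behind that name are the same cannot be seen in the tables. The difference between the 2 fold changes of a gene was also taken, AM12 minus AM11, in which the control cancels if its libraries are the same. That difference had a median of 0.09 on the X and -0.07 on the autosomes, 0.16 apart. These medians are descriptions, and no test over libraries could be made of them.

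The largest rises were on the X and on autosomes, and the 10 largest falls were on autosomes. Of called genes that have a symbol and whose mean is 50 or more, the 10 with the largest rises included 4 on the X. Among all genes with such a mean 38 of the 100 largest rises lay on the X, as did 2 of the 100 largest falls. The most significant call of all was on chromosome V, clec-42 (F16H6.1), a C-type lectin gene, at 7.65 ± 0.43 in the authors' deposited table (adjusted p 9.6e-67). Among the other large rises were abf-5 (T22H6.5), an X-linked defensin-like antibacterial factor, at 7.85 ± 0.55, and pho-8 (R13H4.3), an acid phosphatase gene, at 7.05 ± 0.50 in the authors' deposited table. The rest of the 10 were ifas-2 (9.005 ± 1.50), dhc-3, a dynein heavy chain gene (8.18 ± 1.50), nspc-13 (8.03 ± 0.94), srlf-37 (7.38 ± 1.15), the collagen gene col-20 (7.27 ± 0.65), phat-6, of the pharyngeal gland (7.13 ± 0.53), and idpp-9 (7.07 ± 1.15) in the authors' deposited table. With SEs of 0.94 to 1.50, 5 of these folds are poorly fixed, and whether the control libraries were at 0 cannot be seen. The X genes with the smallest p were nlp-49, a neuropeptide gene, at 5.35 ± 0.34, clik-2, calponin-like, at 6.17 ± 0.39, myo-2 (T18D3.4), the pharyngeal myosin heavy chain, at 6.26 ± 0.40, abf-5, and the chitinase gene cht-1 at 5.12 ± 0.38 in the authors' deposited table. In bulk RNA of whole larvae, fewer cells of a type and less RNA per cell cannot be told apart, and this holds for every tissue gene below.

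Again over genes that have a symbol and a mean of 50 or more, the largest falls in the authors' deposited table were dhs-23 (R08H2.1), a short-chain dehydrogenase gene on chromosome V, at -6.85 ± 0.57, and ptr-22 (Y80D3A.7), of the patched-related family, at -6.21 ± 0.48. They were followed by bus-1 at -5.67 ± 0.62, uroc-1 at -5.36 ± 0.37, the glucocerebrosidase gene gba-2 at -5.12 ± 0.58 and the collagen gene col-131 at -5.04 ± 0.34 in the authors' deposited table. The remaining 4 were trp-4, a mechanosensory TRP channel of neurons (-4.73 ± 0.41), gst-21 (-4.58 ± 0.45), cyp-35C1 (-4.36 ± 0.43) and col-133 (-4.16 ± 1.25) in the authors' deposited table. In the fold changes of AM11, dhs-23 stood at -6.92, ptr-22 at -3.97 and trp-4 at -2.29. Of the 83 X genes that fell, those named by the rule for the lists below were col-172, a cuticle collagen gene, at -3.93 ± 0.32, cyp-13B1 at -2.71 ± 0.35, mec-7, a tubulin gene of touch neurons, at -2.08 ± 0.33, abu-12 at -1.79 ± 0.32 and the homeobox gene ceh-14 at -1.75 ± 0.43 in the authors' deposited table. Each of these 5 belongs to a family or tissue in which autosomal members fell as well.

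In AM12, longer genes had lower fold changes. Over autosomal protein-coding genes sorted by span, the annotated distance from start to end, the median log2 fold change was 0.05 under 1 kb, 0.04 at 1 to 2 kb, -0.08 at 2 to 3 kb, -0.18 at 3 to 5 kb, -0.46 at 5 to 10 kb, -0.73 at 10 to 20 kb and -0.93 over 20 kb. Each step past 1 to 2 kb was thus lower than the one before. In AM11 the autosomal medians of the same ranges lay between -0.23 and -0.08, and the longest genes, at -0.14, lay above the shortest, at -0.23. The difference AM12 minus AM11 went down as AM12 did, with 0.23 under 1 kb, 0.02 at 2 to 3 kb, -0.37 at 5 to 10 kb and -0.78 over 20 kb. Genes over 10 kb lay below genes of up to 2 kb by 0.81 in AM12, at -0.77 against 0.05 (815 and 4116 genes). In AM11 they lay 0.07 above them. As a description across genes, Spearman's rank correlation of fold change with span was -0.27 in AM12 over 10889 autosomal genes, 0.02 in AM11, and -0.46 for the difference over 10697 genes. Genes are not independent replicates, and they share libraries, depth and control.

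**Figure D3:**
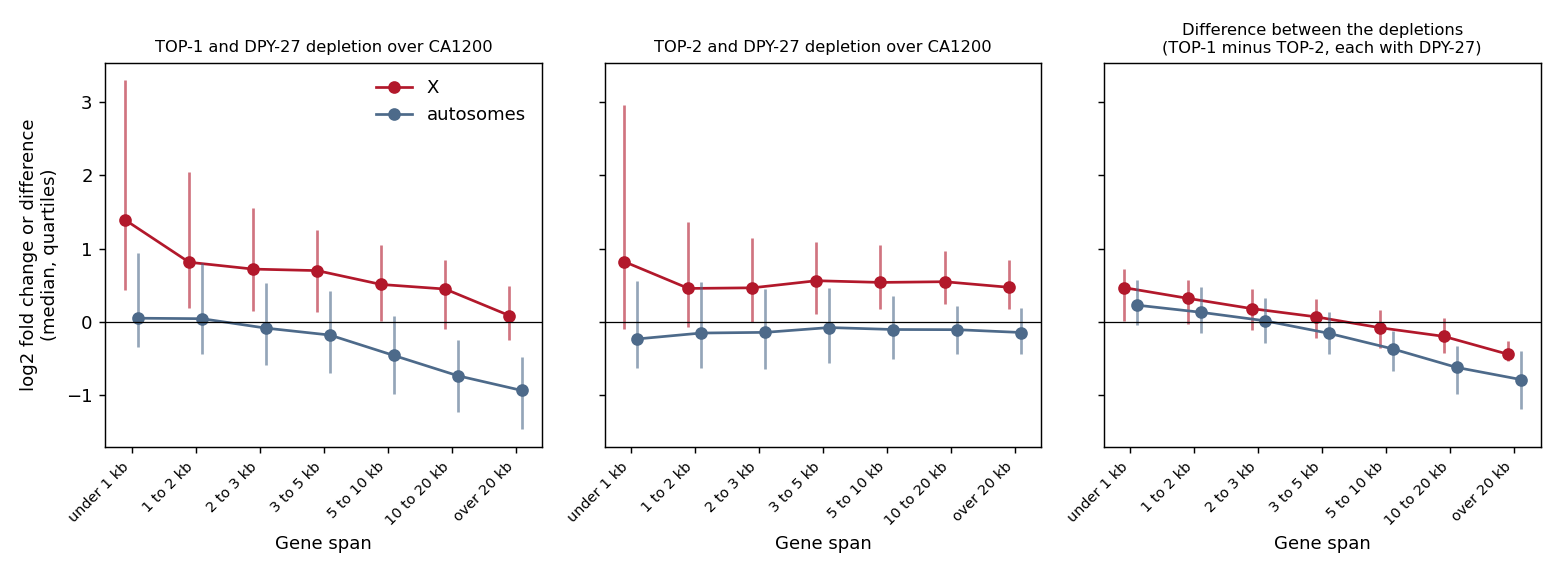
Median log2 fold change (points) with quartiles over genes (bars) in ranges of gene span, for X and autosomal protein-coding genes whose mean normalized count is 10 or more. The left panel shows AM12 over CA1200, the middle panel AM11 over CA1200 and the right panel AM12 minus AM11. Autosomal medians go down to -0.93 over 20 kb in AM12, against -0.14 in AM11.

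The calls followed the same order. Of autosomal genes over 10 kb, 349 of 815 fell in AM12 (42.8%) and 20 rose, against 47 and 53 of 820 in AM11 (5.73% lower). Of those over 20 kb, 90 of 168 fell (53.6%) and 1 rose. Of those under 1 kb, 96 of 1249 fell, 7.69%. The share of falls over all tested genes was 12.8% in AM12, as given above, and 7.47% in AM11. Over autosomal genes it was 14.5% in AM12 and 8.43% in AM11. On the X the gradient ran beside the rise of the chromosome. X medians were 1.39 under 1 kb, 0.81 at 1 to 2 kb, 0.72 at 2 to 3 kb, 0.70 at 3 to 5 kb, 0.51 at 5 to 10 kb, 0.45 at 10 to 20 kb and 0.09 over 20 kb. Genes over 10 kb on the X lay 0.61 below genes of up to 2 kb in AM12 and 0.01 below them in AM11. X and autosomes stayed apart in every range of span, by 1.34 in the shortest, by 0.77 to 0.97 between 1 and 10 kb and by 1.02 in the longest.

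On autosomes the relation followed intron length more than exon length. Among genes with under 1 kb of exon, the autosomal median was 0.03 with under 1 kb of intron, -0.31 with 1 to 5 kb and -0.67 with over 5 kb. Among genes with over 2 kb of exon the same medians were 0.09, -0.25 and -0.76. With 1 to 2 kb of exon they were 0.05, -0.29 and -0.78, so that each class of intron length had similar medians whatever the exon length. Between over 3 kb and up to 1 kb of exon the gap was -0.35 on autosomes and -0.49 on the X. Between over 5 kb and up to 0.5 kb of intron it was -0.86 on autosomes and -0.63 on the X. The gap between long and short autosomal genes was -1.29 for genes with a mean of 10 to 100, -0.80 at 100 to 1000 and -0.53 at 1000 or more, so it shrank with expression. For AM12 minus AM11 the same gaps were -0.94, -0.90 and -0.76. On the X, the gap at a mean of 1000 or more was -0.12 for AM12 and -0.59 for AM12 minus AM11. Without members of the gene lists the gaps were -0.82 on autosomes and -0.59 on the X.

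The longest genes show the pattern one by one and also its exceptions. The 12 with the greatest span were taken by span alone, a choice made after the gradient had been seen. Of the 12, 5 fell and 7 did not pass in the authors' deposited table. Those that fell included hmr-1 (W02B9.1), the cadherin gene of 58.9 kb, at -1.51 ± 0.37 (adjusted p 0.0004), vab-10 (ZK1151.1), the spectraplakin gene of 57.6 kb, at -1.37 ± 0.32 (adjusted p 0.000131), and afd-1 (W03F11.6), the afadin gene of 49.6 kb, at -1.81 ± 0.33 (adjusted p 9.15e-07) in the authors' deposited table. With them fell daf-2 (Y55D5A.5), the insulin receptor gene of 46.3 kb, at -1.99 ± 0.39 (adjusted p 4.03e-06) in the authors' deposited table. The other was rhgf-3, of 49.4 kb, at -1.98 ± 0.38 in the authors' deposited table. In AM11 hmr-1 stood at -0.85, rhgf-3 at -0.67, afd-1 at -0.54, daf-2 at -0.24 and vab-10 at -0.19, and these 5 were not called there. The muscle giants did not pass the test in AM12, with ttn-1, of 81.7 kb, at 1.84 ± 1.09 and unc-89 at 0.66 ± 0.42 in the authors' deposited table. In AM11 both were called higher, at 2.18 and 1.32. The others that did not pass were cox-6B at -0.11 ± 0.37, dig-1 at 0.59 ± 0.48, gcn-1 at -0.41 ± 0.34 and the X genes unc-2 at 0.26 ± 0.40 and gap-2 at -0.35 ± 0.33 in the authors' deposited table. In AM11 these stood at -0.57, 1.21, 0.49, 0.50 and 0.07, none of them called. Of the 12 genes, cox-6B alone stood higher in AM12 than in AM11.

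Where AM12 differed from AM11 gene by gene, the lower genes were again long. A Wald test of AM12 minus AM11, with both SEs taken as independent and Benjamini-Hochberg adjustment over 13027 genes, called 15 genes, 0.115%, with 6 higher (0.0461%) and 9 lower (0.0691%). Since a shared control would make that SE too large, a correlation of 0.5 between the fold changes was also used, and it gave 96 higher and 225 lower. With independent SEs the 9 protein-coding genes lower in AM12 had a median span of 13.0 kb, and 6 of them were over 10 kb. The 5 higher ones had a median span of 1.59 kb. With the correlation of 0.5, 120 of the 212 lower protein-coding genes were over 10 kb (56.6%), none of the 95 higher ones, and 7.58% of all 12708 protein-coding genes in that test. Examples of the lower genes are dpy-1 (M01E10.2), a gene of body shape spanning 13.0 kb that stood at -2.52 ± 0.32 in AM12 and 0.42 ± 0.65 in AM11, and hum-7 (F56A6.2), a myosin gene, at -1.57 ± 0.37 in AM12 and 0.82 ± 0.36 in AM11, in the authors' deposited tables. Of the higher ones, the collagen gene col-101 (K02D7.3) stood at 1.66 ± 0.55 in AM12 and -2.34 ± 0.44 in AM11 (difference 4.00, adjusted p 0.000175).

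Among the genes of dosage compensation itself, dpy-28 and dpy-21 were lower in AM12 and sdc-2 was higher. Of the 5 measured subunit genes of condensin DC, dpy-28 (Y39A1B.3), a HEAT repeat subunit gene of 13.9 kb, fell, at -1.11 ± 0.42 in the authors' deposited table (adjusted p 0.03). This call was lost when fold changes were centred on the autosomal median (adjusted p 0.064). The other subunit genes did not pass the test, with dpy-27 as above, mix-1 at -0.13 ± 0.34, dpy-26 at -0.10 ± 0.33 and capg-1 at -0.10 ± 0.35 in the authors' deposited table. Of these, mix-1 spans 17.2 kb. Also lower was dpy-21 (Y59A8B.1), the H4K20 demethylase gene of 12.9 kb, at -1.10 ± 0.36 (adjusted p 0.011) in the authors' deposited table. In AM11 dpy-28 stood at 0.22 and dpy-21 at -0.00, but neither difference between the depletions was called. Among the recruiters, sdc-2 (C35C5.1), which lies on the X, spans 10.7 kb and starts the loading of the complex, rose, at 1.05 ± 0.35 (adjusted p 0.014) in the authors' deposited table. The partner genes sdc-1, also on the X, and sdc-3 stood at 0.42 ± 0.39 and 0.33 ± 0.40, and dpy-30 at -0.22 ± 0.31, none of them called, in the authors' deposited table.

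Other topoisomerase and SMC genes were called only where they are known for roles in the germline, apart from cin-4. Over all tested genes 17.1% were higher and 12.8% lower. In the authors' deposited table top-2, of topoisomerase II, stood at 0.15 ± 0.33 and top-3 at -0.53 ± 0.44, neither of them called. The related genes that rose were cin-4 at 3.43 ± 0.88 and spo-11, whose product makes the breaks of meiosis, at 3.01 ± 0.75 in the authors' deposited table. Their mean normalized counts were low, at 24.1 and 29.7. None of 4 genes special to condensin I and II was called in the authors' DESeq2 test, and 1 had an unadjusted p under 0.05. Among the 13 genes of cohesin, 2 rose (15.4%, below the share of all tested genes) and 11 did not pass. The risen ones were the kleisin genes of meiosis, coh-3 (4.27 ± 0.82) and rec-8 (3.94 ± 0.60), in the authors' deposited table. The mean normalized count of coh-3 was low, at 36.0. Of 14 genes of the sex signal and sex determination, 4 rose and 2 fell, with 8 not passing. The germline gene fog-1 stood at 2.94 ± 0.54 and the X signal element ceh-39 at 1.11 ± 0.44, while tra-1, the terminal regulator of sex, stood at -1.46 ± 0.34 and sea-2, an autosomal signal element, at -1.32 ± 0.33 in the authors' deposited table. Of 25 genes of RNA polymerase II and its elongation factors, 1 rose, hmg-3 at 3.70 ± 0.52, and 2 fell, cdk-9, the elongation kinase, at -1.23 ± 0.35 and spt-4 at -1.20 ± 0.41, with 22 not passing, in the authors' deposited table.

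Genes of the pharynx, the feeding organ of the head, stood far above the control. Of 19 pharyngeal muscle genes tested, 13 rose and 6 did not pass, against 17.1% of all genes higher. Their median was 3.66 in AM12 and 4.92 in AM11, against -0.04 for all genes in AM12. Beside myo-2, myo-1 (R06C7.10) stood at 5.47 ± 0.39, myo-5 at 5.93 ± 0.43 and tnc-2, a troponin C gene, at 5.73 ± 0.45 in the authors' deposited table. Of 69 genes of the pharyngeal cuticle and gland, 55 rose, 2 fell and 12 did not pass, with a median of 4.31 in AM12 and 4.998 in AM11. The gland gene phat-7 stood at 5.66 ± 0.38 and idpp-15 at 5.60 ± 0.39, while abu-13 stood at -2.14 ± 0.36 and abu-12 at -1.79 ± 0.32 in the authors' deposited table. Few genes of body wall muscle were called. Of 40 5 rose, 2 fell and 33 did not pass, and the median was -0.00. Among those that rose, tnt-3 (1.80 ± 0.33), unc-27 (0.92 ± 0.30) and unc-96 (0.88 ± 0.34) lie on the X and tni-3 (1.62 ± 0.33) on chromosome V in the authors' deposited table. The 30 autosomal members had a median of -0.04 and the 10 X members one of 0.73. Because both depletions were read against a control of the same name, a change shared by AM12 and AM11 cannot be told apart from a property of that control.

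**Figure D4:**
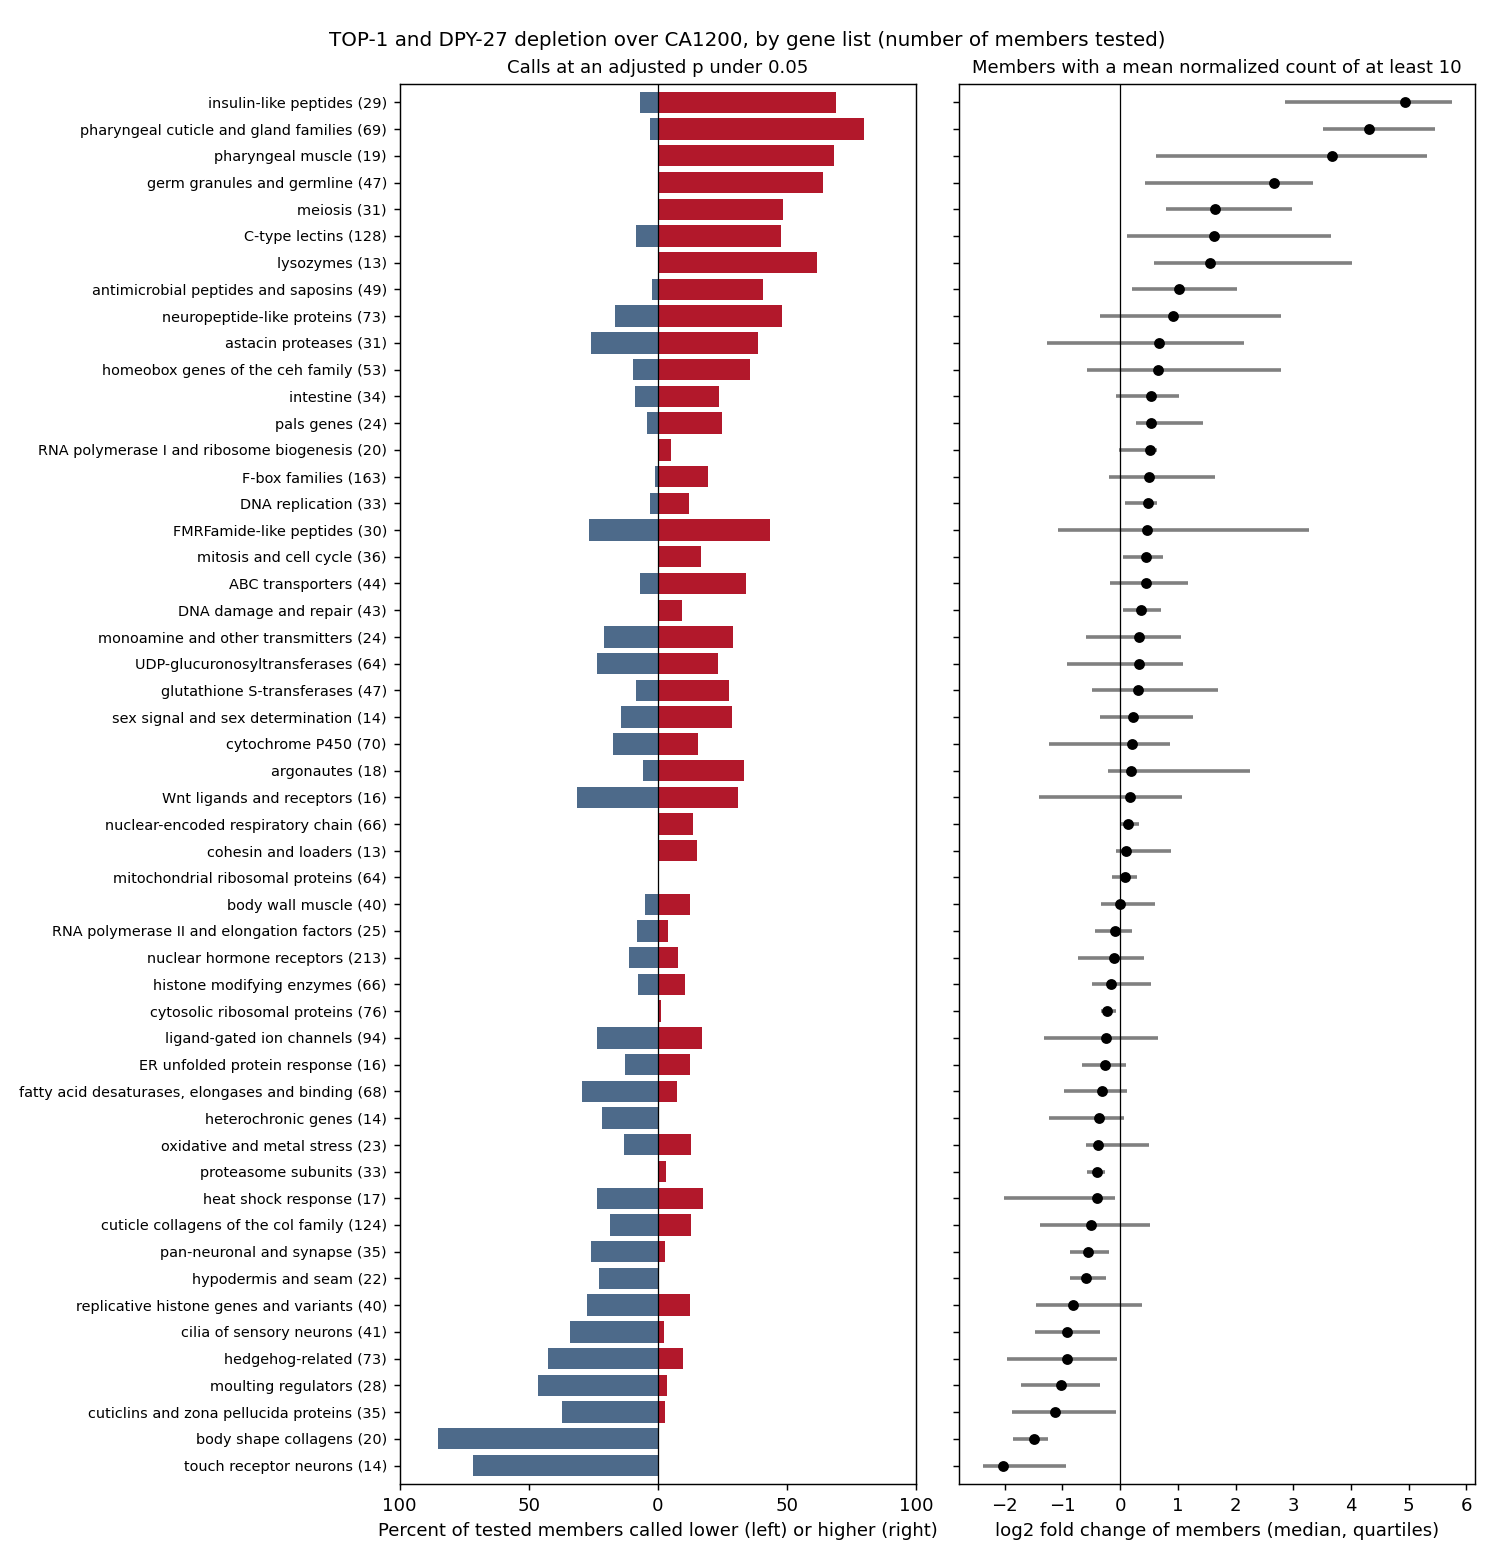
Gene lists with at least 10 tested members, 6 lists of mixed or posterior cells, few genes or other families left out, ordered by median, in AM12 over CA1200. Bars on the left give the percent of tested members called lower (blue) or higher (red), and points on the right give the median log2 fold change with quartiles over members. Of the lists shown, insulin-like peptides and pharyngeal genes are at the top, with medians of 4.94 to 3.66, and body shape collagens and touch receptor neuron genes at the bottom, at -1.49 and -2.03.

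Many germline genes rose as well. Of 47 genes of germ granules and germline RNA control 30 rose and 17 did not pass, with a median of 2.66 in AM12 and 3.12 in AM11. Over members with a mean of at least 100 the AM12 median was 0.52. The P granule genes pgl-1 (ZK381.4) and glh-1 stood at 3.66 ± 0.43 and 3.23 ± 0.38, and the translational repressor gene gld-1 at 4.01 ± 0.48 in the authors' deposited table. Of 31 meiosis genes 15 rose and 16 did not pass, with a median of 1.64, which was 0.07 over members with a mean of at least 100. The best supported meiotic member with a mean of at least 50 was syp-6, of the synaptonemal complex, at 3.01 ± 0.63 in the authors' deposited table. Among 18 argonaute genes 6 rose, 1 fell and 11 did not pass. Those that rose included ppw-2 (3.63 ± 0.44), the nuclear argonaute gene hrde-1 (2.66 ± 0.40) and the piRNA argonaute gene prg-1 (2.17 ± 0.35), while ergo-1 stood at -1.37 ± 0.34 in the authors' deposited table. Among genes of proliferating cells, 4 of 33 DNA replication genes rose and 1 fell, 6 of 36 of mitosis and the cell cycle rose, and 4 of 43 of DNA damage and repair rose. These shares, 12.1%, 16.7% and 9.30% higher, were below the 17.1% of all tested genes. The medians of these 3 lists were 0.47, 0.46 and 0.36. Examples are pole-1, of DNA polymerase epsilon, at 1.14 ± 0.34, the mismatch repair gene msh-2 at 1.06 ± 0.37 and cep-1, the p53 relative, at 1.39 ± 0.47 in the authors' deposited table. These genes are also used in the germline, and the part of germline RNA in their values was not tested.

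Many genes of secreted hormones and immune effectors rose, where 17.1% of all tested genes were higher. Of 29 insulin-like peptide genes 20 rose (69.0%), 2 fell and 7 did not pass. Their median was 4.94 over the 23 that reached a mean of 10, 3.33 over those that reached 100 and 3.57 with no floor. Since the mean covers the libraries of both groups, a gene can reach 10 through AM12 alone. In AM11 the insulin-like list had a median of 4.30, with 16 of 29 higher. Among the risen insulin-like genes daf-28 (Y116F11B.1), which promotes growth past the dauer decision, stood at 5.66 ± 0.41 in AM12, ins-26 at 5.19 ± 0.57, ins-4 at 4.99 ± 0.59 and ins-5 at 4.61 ± 0.52 in the authors' deposited table. Those that fell were ins-18 at -1.53 ± 0.33 and ins-17 at -1.28 ± 0.32 in the authors' deposited table. Of 13 lysozyme genes 8 rose (61.5%) and 5 did not pass, with a median of 1.56 in AM12 and 0.66 in AM11. They were led by lys-7 at 4.75 ± 0.46, ilys-2 at 4.47 ± 0.55 and ilys-3 at 4.26 ± 0.46 in the authors' deposited table. Of 128 C-type lectin genes 61 rose (47.7%), 11 fell and 56 did not pass, with a median of 1.62 in AM12 and 0.71 in AM11. After clec-42 came clec-7 at 5.23 ± 0.43, clec-41 at 4.78 ± 0.43 and clec-166 at 4.53 ± 0.39, while clec-1 stood at -2.22 ± 0.30 and clec-233 at -2.11 ± 0.39 in the authors' deposited table. Of 49 antimicrobial peptide and saposin genes 20 rose (40.8%) and 1 fell, spp-24, with a median of 1.02. The defensin-like gene abf-6 stood at 6.94 ± 0.52 and the saposin gene spp-2 at 2.95 ± 0.52 in the authors' deposited table. Near-identical members of these and other large families (collagens, histones, glutathione S-transferases, small heat shock proteins) can share reads, so single members are uncertain.

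Many members of these families lie on chromosome V, the autosome with the highest median. Of the C-type lectin genes 51 of those tested were on V, and 27 of the 51 rose and 7 fell. Of F-box genes, 54 were on V, with 14 higher and 1 lower. Over all tested genes of V, 19.2% were higher and 13.7% lower. Of the F-box families as a whole 32 of 163 rose (19.6%), 2 fell (1.23%) and 129 did not pass. The share of rises was near that of all tested genes, of which 17.1% were higher and 12.8% lower. The rises were led by fbxa-136 at 6.46 ± 0.64 and fbxa-44 at 6.80 ± 0.80 in the authors' deposited table. Of 213 nuclear hormone receptor genes 17 rose (7.98%) and 24 fell (11.3%), and of the 137 on V 7 rose and 13 fell. Their median was -0.11, near that of all genes.

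Most body shape collagen genes fell, while other cuticle genes were divided. Of 20 body shape collagen genes and their processing enzymes 17 fell and 3 did not pass, against 12.8% of all genes lower, with a median of -1.49. In AM11, where 7.47% of all genes were lower, the median was -1.19 with 2 of 20 lower, and no member passed the test of the difference. Among them sqt-1 (B0491.2), a collagen of body shape, stood at -2.27 ± 0.33, sqt-2 at -1.76 ± 0.34, dpy-18, a prolyl hydroxylase gene, at -1.55 ± 0.35 and dpy-4 at -1.38 ± 0.29 in the authors' deposited table. In AM11 the SEs of sqt-1, sqt-2 and dpy-4 were larger, at 0.62, 0.61 and 0.63, and that of dpy-18 was 0.34. Counts of calls in the 2 depletions therefore differ in precision as well as in size of change. None of these 20 genes is over 10 kb, and their median span is 1.24 kb. The larger col family was divided, with 16 of 124 higher (12.9%, against 17.1% of all tested genes), 23 lower (18.5%) and 85 not passing. Its median was -0.50. Here col-96 stood at 6.25 ± 0.44 and col-142 at 2.27 ± 0.32, while col-172 stood at -3.93 ± 0.32, col-153 at -3.83 ± 0.42 and col-34 at -3.21 ± 0.35 in the authors' deposited table. Of 35 cuticlin and zona pellucida protein genes 13 fell, 1 rose and 21 did not pass, with cutl-18 at -3.76 ± 0.45 and cut-4 at -3.75 ± 0.48 in the authors' deposited table.

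Among 28 moulting genes 13 fell, 1 rose and 14 did not pass, with a median of -1.03 in AM12, against -0.50 and 2 falls in AM11. Over all tested genes 12.8% fell in AM12 and 7.47% in AM11. The protease inhibitor gene mlt-11 (W01F3.3) stood at -4.13 ± 0.52, che-14, of apical secretion, at -3.12 ± 0.38, lin-42, the period relative of the moulting clock, at -2.39 ± 0.40 and bed-3 at -2.34 ± 0.37 in the authors' deposited table. Of 73 hedgehog-related genes, which act at cuticle-making epithelia, 31 fell, 7 rose and 35 did not pass, with a median of -0.92. Among them ptc-3 (Y110A2AL.8), a patched receptor gene, stood at -3.03 ± 0.34, ptr-18 at -2.96 ± 0.33 and grl-10 at -2.41 ± 0.33, while ptr-24, on the X, stood at 1.26 ± 0.34 in the authors' deposited table. Of 14 heterochronic genes, which time the larval stages, 3 fell, lin-46 (-2.52 ± 0.45), mab-10 (-1.85 ± 0.45) and lin-29 (-1.44 ± 0.41), and 11 did not pass in the authors' deposited table. Astacin proteases were split, 12 of 31 higher (38.7%) and 8 lower (25.8%), against 17.1% and 12.8% of all tested genes. Their median was 1.54 for X members and -0.31 for autosomal ones. The X genes nas-11 and nas-15 stood at 3.05 ± 0.32 and 4.33 ± 0.48, and nas-3, on chromosome V, at -4.10 ± 0.49 in the authors' deposited table. The median of all astacin members, 0.68, became -0.27 with a floor of 100 on the mean. Of 22 genes of the hypodermis and seam 5 fell and 17 did not pass, with a median of -0.59, among them lin-26 at -1.57 ± 0.32 and vab-19 at -1.31 ± 0.32 in the authors' deposited table. Whether AM12 and CA1200 larvae were at the same phase of the moulting cycle was not tested.

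Neurons differed by class. Over all tested genes 12.8% fell in AM12 and 7.47% in AM11. Of 35 pan-neuronal and synaptic genes 9 fell, 1 rose and 25 did not pass, with a median of -0.56. The kinesin gene unc-104 (C52E12.2), of 15.6 kb, stood at -2.52 ± 0.38, unc-33 at -1.66 ± 0.36 and ric-4, the SNAP-25 gene, at -1.20 ± 0.34, while sng-1, on the X, stood at 1.40 ± 0.35 in the authors' deposited table. Of these 35 genes, the 10 over 10 kb had a median of -0.87 and the others one of -0.39. Touch receptor neuron genes were lower in 10 of 14 cases, with a median of -2.03. Their acetyltransferase gene mec-17 stood at -2.67 ± 0.32, their tubulin genes at -2.27 ± 0.32 (mec-12) and -2.08 ± 0.33 (mec-7) and mec-9 at -2.62 ± 0.40 in the authors' deposited table. In AM11 the list had a median of -1.09 with 7 of 14 lower, and mec-17, mec-12, mec-7 and mec-9 stood at -2.60, -2.23, -2.03 and -1.31. Of 41 genes of sensory cilia 14 fell, 1 rose and 26 did not pass, with a median of -0.92 in AM12, against -0.44 and 2 falls in AM11. They included che-3, the dynein heavy chain gene of intraflagellar transport, at -2.37 ± 0.45, osm-12, of the BBSome, at -3.30 ± 0.66, ocr-2, a TRP channel gene, at -2.71 ± 0.49 and dyf-2 at -2.10 ± 0.45 in the authors' deposited table. In AM11 che-3 stood at -0.72 and osm-12 at -0.61, and neither difference was called.

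Neuropeptide and transmitter genes went both ways. Over all tested genes 17.1% were higher and 12.8% lower. Of 30 FMRFamide-like peptide genes 13 rose, 8 fell and 9 did not pass, with flp-17 at 6.04 ± 0.48 and flp-1 at 5.46 ± 0.36 against flp-34 at -3.06 ± 0.38 and flp-15 at -2.21 ± 0.30 in the authors' deposited table. Of 73 other neuropeptide genes 35 rose, 12 fell and 26 did not pass. Here nlp-4 stood at 6.25 ± 0.62 and nlp-64 at 6.12 ± 0.59, while nlp-12 stood at -3.09 ± 0.30 and nlp-20 at -2.91 ± 0.30 in the authors' deposited table. X members weighed on the side of the rises, with medians of 1.68 and 1.80 in these lists against -0.37 and 0.16 for autosomal members. Of 24 genes of monoamines and other transmitters 7 rose and 5 fell, with a median of 1.15 for X members and 0.03 for autosomal ones. Here cat-1, the vesicular monoamine transporter gene, on the X, stood at 3.75 ± 0.58, against eat-4, the vesicular glutamate transporter gene, at -1.58 ± 0.41 and unc-86 at -2.27 ± 0.38 in the authors' deposited table. Of 94 ligand-gated ion channel genes 16 rose, 22 fell and 56 did not pass, led downward by acr-23 at -3.59 ± 0.50 in the authors' deposited table.

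Along the body axis 2 Hox genes, of the anterior and the midbody, were higher and the 3 posterior ones lower. Of the 6 Hox genes measured, the anterior gene ceh-13 (R13A5.5), the labial relative, and lin-39 of the midbody rose, at 2.999 ± 0.40 and 2.04 ± 0.38 in the authors' deposited table. The next in order along the body, mab-5, stood at -0.32 ± 0.36 and was not called, and the posterior ones fell, with egl-5 (C08C3.1) at -2.81 ± 0.36, php-3 (Y75B8A.1) at -2.77 ± 0.33 and nob-1 (Y75B8A.2) at -2.69 ± 0.34 in the authors' deposited table. The Hox genes of AM11 were called in the same numbers, 2 higher and 3 lower. Of 16 genes of Wnt signalling 5 rose and 5 fell. The Wnt ligand genes of the tail fell most, egl-20 (W08D2.1) at -3.90 ± 0.36 and lin-44 (E01A2.3) at -3.37 ± 0.38 in the authors' deposited table. Also lower were lin-17, a Frizzled receptor gene, at -1.91 ± 0.33, the Wnt secretion gene mig-14 at -2.26 ± 0.35 and the ligand gene cwn-1 at -1.23 ± 0.36 in the authors' deposited table. Higher were the ligand gene cwn-2 (1.61 ± 0.46), the Frizzled gene mom-5 (1.93 ± 0.39), the X genes lin-18 (1.17 ± 0.34) and bar-1, a beta-catenin gene (1.03 ± 0.34), and sfrp-1, a secreted Wnt inhibitor gene (3.32 ± 0.64), in the authors' deposited table. A list of 15 genes of posterior cells, drawn up after earlier results of these data had shown such genes low, had a median of -2.54 in AM12 and -2.03 in AM11, with 10 lower and 2 higher in each. The list is therefore no independent evidence of its direction. Genes of anterior cells outside the pharynx showed no common rise. Of 18 tested, 5 rose (27.8%) and 3 fell (16.7%), against 17.1% and 12.8% of all genes. The falls include lin-44, the tail ligand gene named above, which is also in the list of posterior cells. Their median was -0.13 in AM12 and 0.03 in AM11. All Hox and Wnt genes are plotted, and mab-5, cwn-1 and bar-1 were singled out after their values had been seen.

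**Figure D5:**
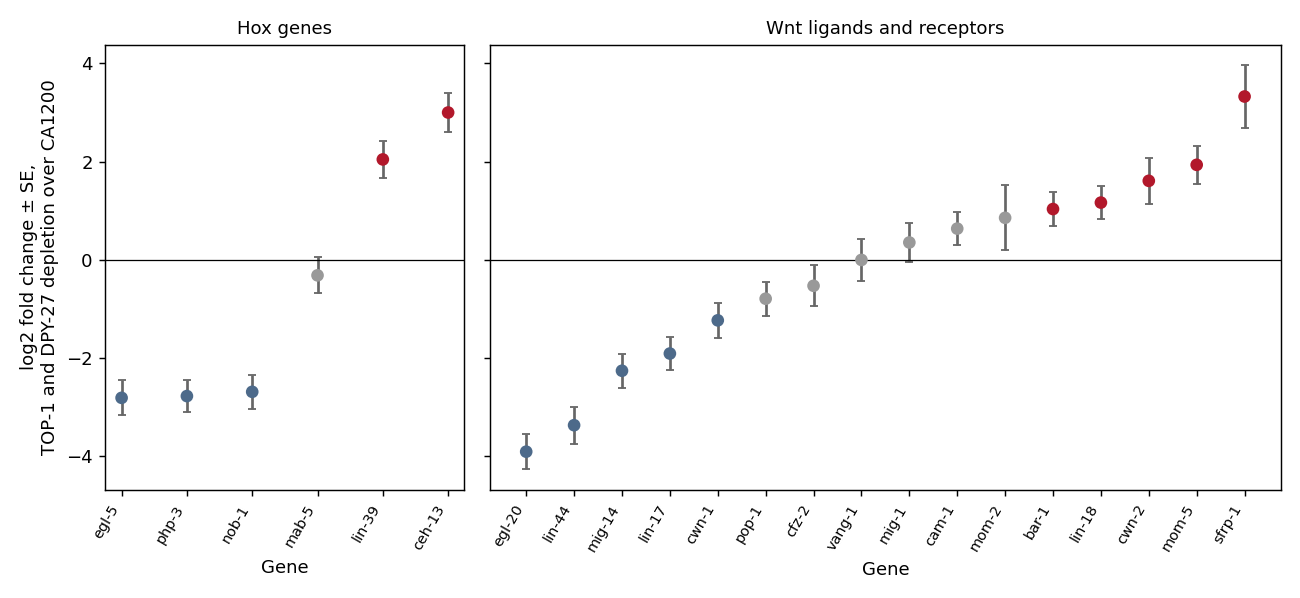
Log2 fold change with SE for the Hox genes (left) and Wnt pathway genes (right), AM12 over CA1200, ordered by value. Red points were called higher, blue points lower, and grey points did not pass. The posterior Hox genes egl-5, php-3 and nob-1 lie between -2.81 and -2.69, and ceh-13 and lin-39 at 2.999 and 2.04.

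Homeobox genes of the ceh family rose in 19 of 53 cases (35.8%) and fell in 5 (9.43%), against 17.1% and 12.8% of all genes. Among them ceh-37, on the X, stood at 4.04 ± 0.42 and ceh-32 at 2.84 ± 0.43 against ceh-6 at -2.42 ± 0.43 in the authors' deposited table. Intestine genes rose in 8 of 34 cases (23.5%), fell in 3 (8.82%) and did not pass in 23, with a median of 0.54. One of the falls is that of gcy-35, at -2.61 ± 0.46 in the authors' deposited table, a guanylate cyclase gene better known from sensory neurons. The peptide transporter gene pept-1, on the X, stood at 3.48 ± 0.40 and the cathepsin genes cpr-1 and cpr-3 at 2.23 ± 0.46 and -1.92 ± 0.36 in the authors' deposited table.

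Stress and detoxification genes showed no common direction. Over all tested genes 17.1% were higher and 12.8% lower. Of 47 glutathione S-transferase genes 13 rose, 4 fell and 30 did not pass, with a median of 0.31 in AM12 and -0.55 in AM11, although the median of AM12 was -0.36 with a floor of 100 on the mean. The genes gst-12, gst-14 and gst-24 stood at 3.36 ± 0.40, 4.82 ± 0.69 and 2.71 ± 0.38 in AM12 and at 1.58, 3.06 and 0.33 in AM11 in the authors' deposited tables. Of 70 cytochrome P450 genes 11 rose and 12 fell, and of 64 UDP-glucuronosyltransferase genes 15 rose and 15 fell. Examples are cyp-33C3 at 2.51 ± 0.42, cyp-42A1 at -2.92 ± 0.37, ugt-18 at 3.41 ± 0.40 and ugt-8 at -3.03 ± 0.33 in the authors' deposited table. Of 44 ABC transporter genes 15 rose (34.1%) and 3 fell (6.82%), with a median of 1.14 for X members and 0.14 for autosomal ones. Among the risen, pmp-1, of the peroxisome, stood at 4.59 ± 0.43 and pgp-14, on the X, at 4.28 ± 0.38 in the authors' deposited table. Of 17 heat shock genes 3 rose and 4 fell, with hsp-70 at -2.72 ± 0.59 and hsp-16.2 at -2.08 ± 0.57 against hsp-43, on the X, at 1.13 ± 0.34 in the authors' deposited table. The BiP gene hsp-4 stood at -1.90 ± 0.36 and pek-1, the PERK kinase gene on the X, at 0.99 ± 0.31 in the authors' deposited table. Of 23 genes of oxidative and metal stress 3 rose and 3 fell, with the superoxide dismutase gene sod-3, on the X, at 2.90 ± 0.67 and the metallothionein gene mtl-1 at -3.52 ± 1.17 in the authors' deposited table. None of 9 genes of the mitochondrial unfolded protein response was called in the authors' DESeq2 test, and 1 of them had an unadjusted p under 0.05.

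Few genes of ribosomes, the proteasome and the respiratory chain were called, against 29.9% of all genes (17.1% higher and 12.8% lower). Of 76 cytosolic ribosomal protein genes 1 rose and 75 did not pass, with a median of -0.23, and of 33 proteasome genes 1 rose and 32 did not pass, with a median of -0.40. None of 64 mitochondrial ribosomal protein genes was called in the authors' DESeq2 test (median 0.08), and 2 had an unadjusted p under 0.05. Of 66 nuclear-encoded genes of the respiratory chain 9 rose and 57 did not pass, with a median of 0.14 in AM12, against -0.30 and 2 rises in AM11. Among the risen, sdha-1 (1.13 ± 0.29) and asg-2 (1.24 ± 0.33) are X genes, and nduf-2.2 (1.76 ± 0.41) and ucr-2.3 (2.60 ± 0.52) are on chromosome III in the authors' deposited table. Fatty acid and histone genes had more falls than rises. Of 68 genes of fatty acid activation, desaturation, elongation and binding, 20 fell, 5 rose and 43 did not pass, with acs-20 at -2.16 ± 0.33 and far-2 at -1.76 ± 0.40 against acs-17, on the X, at 1.43 ± 0.33 in the authors' deposited table. Of 40 histone genes 11 fell, 5 rose and 24 did not pass, with his-3 at -2.01 ± 0.48 and his-74 at 2.95 ± 0.44 in the authors' deposited table, and poly(A) selection catches only part of these transcripts. Of 66 histone modifying enzyme genes 7 rose (10.6%) and 5 fell (7.58%), both below the shares of all tested genes. Those that fell included dot-1.1, a methyltransferase gene of 18.5 kb, at -1.12 ± 0.35, and mys-2 at -1.15 ± 0.36 in the authors' deposited table.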

How the data were processed

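Poly(A) RNA of L2/L3 larvae on auxin was sequenced, with 2 libraries each of AM12 and AM11, and the authors compared each with CA1200. The files are 2 result tables without values per library. Mean normalized counts, a signal averaged over the libraries of a comparison, were deposited by the authors. The log2 fold changes and their SEs were deposited by the authors, as was the score, the Wald statistic, which equals the fold change over its SE in every line. Each p-value and adjusted p-value was deposited by the authors, per the file headers, which carry the column names of DESeq2. The submitters' processing notes name DESeq2 1.30.0, HTSeq 0.13.5, HISAT2 2.2.1, Cufflinks 2.2.1 and CASAVA 1.8, with no role for each. The genome build, the use of strand in counting and the treatment of reads that match several genes are not given in the sources used here. No coordinates are printed. The number of control libraries and the reads per library are unknown. The labels speak of biological replicates and give no cultures, so p-values measure the spread between these libraries.

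An adjusted p was missing for 2333 genes, all with a mean normalized count of 2.76 or less, and stayed missing. Gene names were matched to Ensembl release 115 (WBcel235) for 98.1% of genes (16867 of 17187), which gave symbols, span, exon length and biotype only. Medians use genes with a mean of at least 10, and span is described over protein-coding genes. The difference AM12 minus AM11 was tested by a Wald z with Benjamini-Hochberg adjustment, in Python 3.11.15 with pandas 2.3.3, scipy 1.17.1 and statsmodels 0.14.6, and its code was tested on simulated data. The 64 gene lists and the members named were chosen with earlier results of these data known, so no list was tested as a set, and they are described by counts and medians. Of these lists 6 were left out of the plot of lists, since they hold few genes, mixed cell types or genes of other families.

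Genes named, all called, with a symbol and with a mean of 50 or more, were the 10 largest rises and falls and the 5 X and 5 autosomal genes with the smallest p. From each list up to 4 called members in each direction with the smallest adjusted p could be named, and all members for condensin DC, its recruiters and the topoisomerases. For the difference, the 5 largest in each direction could be named. Alternatives were another threshold, adjustment over every deposited p-value, centring on the autosomal median, other floors, exon or intron length in place of span, and an SE that allows for a shared control. No sequence is printed.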

Additional observations from a re-analysis of the deposited data

Results flagged for a closer look

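The effects of the depletions, AM12 and AM11, each over CA1200, differed at an adjusted p under 0.05 for 15 genes in a Wald test of the difference itself, with independent SEs and Benjamini-Hochberg adjustment over 13027 genes. Each is given as AM12 minus AM11 on the log2 scale. How many libraries show the direction cannot be seen in these tables. Explanations were not weighed.

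Lower in AM12 were suex-1 (difference -3.04, adjusted p 0.0382), dpy-1 (-2.94, 0.0419), the X-linked astacin gene nas-38 (-2.70, 0.0242), trp-4 (-2.44, 0.0161), Y52B11A.4 (-2.39, 0.0349), hum-7 (-2.39, 0.0114), snf-6 (-2.39, 0.0382), sorb-1 (-2.18, 0.0382) and tmem-120 (-1.96, 0.0382). Of these, suex-1 stood above the control in both depletions, at 3.15 in AM12 and 6.19 in AM11. The genes hum-7, snf-6, sorb-1 and dpy-1 were lower than the control in AM12 (-1.57, -2.28, -1.87 and -2.52) and not called in AM11 (0.82, 0.11, 0.31 and 0.42). The first 3 of these span 21.8, 12.9 and 20.2 kb.

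Higher in AM12 were the X genes W05H9.3 (difference 2.03, adjusted p 0.0382) and F09C8.1 (3.44, 0.0382), and F08G2.5 (3.11, 0.0367), T20D4.12 (3.33, 0.0037), the collagen gene col-101 (4.00, 0.000175) and the sodium-proton exchanger gene nhx-6 (5.70, 0.000736). The last of these stood at 2.82 in AM12 and -2.89 in AM11, both called.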

How the results depend on the processing

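No paired analysis was possible because the deposited tables hold no values per library, and for the same reason no library could be left out and no model refitted. With a threshold of 0.01 the authors' table had 3119 calls, with adjustment over every deposited p-value 4318, and with changes of under 1 on the log2 scale left out 4073, against 4442. Centring on the autosomal median, a shift of 0.14, gave 4373 calls (2824 higher and 1549 lower, 64.6% higher against 57.1%). The X shift ran from 0.82 to 0.91 over 6 alternatives, 2 of them added after seeing the data. With no floor on the mean the chromosome medians were -0.0040 on II, -0.0474 on IV, 0.23 on V and 0.79 on X, and with a floor of 100 that of V was -0.14. The gap of long and short autosomal genes, -0.81, was -0.35 by exon length, -0.71 with a floor of 100, -1.29 at a mean of 10 to 100 and -0.53 at 1000 or more. On the X, where it was -0.61, these were -0.49, -0.39, -1.51 and -0.12. Intron length, expression ranges, the difference and the removal of list members were added after seeing the data. The difference between depletions had 321 calls (96 higher, 225 lower) with a correlation of 0.5, and 3 higher of 12 with a floor of 100. The causes were not tested.

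Of 363 named genes, centring lost dpy-28, dnj-27, fbxa-88, spe-48, pat-6 and ceh-20 and added capg-2, dve-1 and mrps-25, and adjustment over every p-value lost osm-3 (adjusted p 0.0565). List medians changed sign in 7 of 63 lists with a floor of 100, in 4 of 64 with none and in 5 of 64 when set against the X or autosomal median. Among them, with the floor of 100, were cytochrome P450 (-0.05), sex determination (-0.15), topoisomerases (-0.17) and Wnt genes (-0.26). With a median SE of 0.397 per gene, changes of the size of the X shift are below what most single genes can show.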
